A study of Mus musculus with 6 samples.

Results

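DNA methylation of obstructed mouse kidneys given 5AZA was compared with that of obstructed kidneys given saline. The libraries were chosen by their treatment label: 2 labelled UUO+5AZA and 2 labelled UUO+saline, out of 6 in the series. CpG sites entered when each of the 6 libraries covered them at least 10 times, which kept 943307 of 2134823 sites. All 6 libraries came from kidney cortex and outer medulla of wild type male C57BL/6J mice, with no age given. UUO is unilateral ureteral obstruction, a model of kidney fibrosis in which the left ureter is tied off, here for 7 days. The 5AZA mice received 1 mg/kg per day of the drug in saline by intraperitoneal injection. The 2 sham libraries are shown as the background: sham 1 was operated as the control for the obstruction, whereas sham 2 was labelled as a sham of an ischemia/reperfusion experiment, with 48 hours in its name. None of the 6 libraries had 5AZA without obstruction. Nothing states that the libraries came from separate animals, so p-values measure the spread between these libraries, which may be technical.

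Methylation of cytosine in CpG pairs is copied to the new strand at each cell division by the enzyme encoded by Dnmt1, and it is dense over most of the mammalian genome but absent from most CpG-rich gene starts. Drugs of the 5-azacytosine type are nucleoside analogs that are built into nucleic acids and trap DNA methyltransferases, so that newly made DNA stays unmethylated. The labels do not say which such compound was given, and they do not say on how many of the days it was given. Reduced representation bisulfite sequencing (RRBS) reads methylation on short fragments cut by MspI at CCGG, and therefore samples CpG-rich DNA.

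Coverage summed over sites ranged from 57853745 to 76730132 reads in the 4 libraries compared, with medians of 33 to 48 reads per site, and was lowest in sham 2, at 37728517 reads and a median of 21. Gene starts were located for 9065 of 27025 RefSeq genes by matching the CpG pattern of each promoter sequence to the covered positions, since no genome of the files' build, mm9, was used here. Genes without such a match were not analysed here, among them Kl and Rasal1. The promoter sequences used held none for chromosome 18, so its genes could not be located and its windows enter no count by distance. Coordinates are mm9 throughout.

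Methylated sites read lower in each 5AZA library than in either saline library, while unmethylated sites hardly differed. Over all 943307 sites the mean level was 45.3% in each saline library, 43.5% in 5AZA 1 and 43.1% in 5AZA 2, with 44.4% and 42.9% in sham 1 and sham 2. The 5AZA libraries thus lay below the saline libraries without overlap, by -2.04 percentage points between group means, but not below both sham libraries. In these means every site counts the same. As methylated reads over all reads, where deeply covered sites count more, the libraries overlapped, at 39.4% and 40.8% with saline and 40.1% and 41.7% with 5AZA, a difference of 0.82 points. With each site weighted by its mean coverage over the 6 libraries the difference was -1.89 points. To describe which sites carried this difference, sites were sorted by their mean level in the 2 sham libraries, which take no part in the comparison. The sham level of a class is thus set by the sorting and is not compared with the other groups. At the 404773 sites under 5% in sham the difference was -0.21 points. It was -7.08 points at the 21533 sites of 20 to 40%, where the saline libraries stood at 37.7% and 37.5% and the 5AZA libraries at 30.8% and 30.1%.

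Densely methylated sites were lower with 5AZA as well. At the 310680 sites of 80% or more in sham, the level was 93.3% and 93.4% with saline and 90.5% and 89.4% with 5AZA. Expressed as the unmethylated share, the group means were 6.68% with saline and 10.0% with 5AZA, a ratio of 1.5. The ratio was 1.42 at sites of 80 to 95% and 1.76 at sites of 95% or more. In every class of 60% or more, 5AZA 2 was lower than 5AZA 1; at sites of 80% or more the means were 90.0% ± 0.76 with 5AZA and 93.3% ± 0.045 with saline (SD, n = 2 each). The exact two-sided permutation test over libraries gave p = 0.33 in each of the 7 classes and over all sites, and Benjamini-Hochberg adjustment over the classes left it there. This is the smallest value that 2 libraries against 2 allow. In whole tissue, loss of methylation within cells and a larger share of cells with less methylation cannot be told apart.

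**Figure D1:**
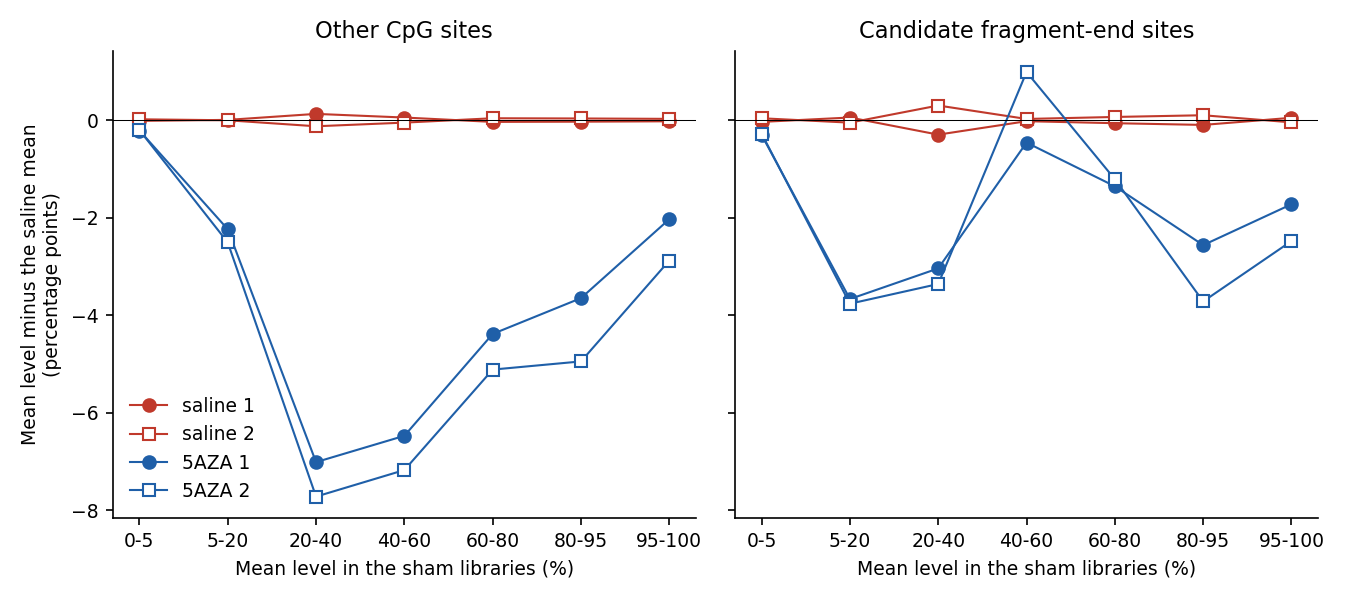
Mean methylation level of each saline and 5AZA library minus the mean of the saline libraries (percentage points), by class of sham level (%), for candidate fragment-end sites and for all other CpG sites. At the other sites each 5AZA library lies below both saline ones in every class, most at 20 to 40% (-7.37 points between group means); at candidate fragment-end sites of 40 to 60% the groups overlap.

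The enzyme's own recognition sites behaved differently from other CpG sites of the same promoters. MspI cuts within CCGG and leaves an overhang that is filled in before sequencing, and per the labels' protocol the nucleotides used for this held methylated dCTP. In the 8124 located promoters whose other CpG sites averaged under 5% in sham, the 17549 covered CCGG sites read 73.8% and 74.0% with saline and 72.8% and 73.0% with 5AZA, and the 90792 other sites read 2.14% and 2.20% with saline and 2.07% and 2.04% with 5AZA. Every library thus showed highly methylated CCGG sites inside unmethylated promoters. In the 60 promoters whose other sites averaged 80% or more in sham, the 337 other sites differed by -3.93 points between 5AZA and saline, and the 117 CCGG sites by -1.77 points. Away from located promoters the sequence was not at hand, and candidate fragment-end sites were recognised by coverage and level instead. They made up 11.2% of all sites, and held 87.6% of the promoters' CCGG sites but 0.937% of their other sites. Of the 19256 covered CCGG sites in located promoters, 17549 lay in promoters whose other sites averaged under 5% in sham. At the Hoxa5 and Mcts2 promoters, which were partly methylated, no covered CCGG site was recognised as a candidate fragment end. Sites outside the candidate set can therefore still be CCGG sites, also in windows without a candidate. The level of candidate fragment-end sites differed by -1.55 points overall. At 40 to 60% in sham it differed by 0.26 points, and there 5AZA 2 was above and 5AZA 1 was below both saline libraries. Levels summed over a promoter or window include these sites, and the differences of promoters are therefore also given without CCGG sites for many of the genes named.

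At densely methylated sites CpG spacing changed the ratio little when all sites were counted, and more without candidate fragment-end sites. Spacing was measured to the nearest other CpG seen in any library, so a site counted as isolated can have uncovered CpG sites nearby. Among sites of 80% or more in sham, the difference was -3.89 points where this CpG lay 2 to 4 bp away. It was -2.16 points where it lay at least 80 bp away. The unmethylated share with saline was smaller at isolated sites, and its ratio between 5AZA and saline was 1.5 at 2 to 4 bp and 1.48 at 80 bp or more. Over the 6 classes of spacing the ratio ranged from 1.47 to 1.52. Without candidate fragment-end sites it was higher at close spacing: 1.61 at 2 to 4 bp, 1.58 at 5 to 9 bp and 1.56 at 10 to 19 bp. It was then 1.54 at 20 to 39 bp, 1.47 at 40 to 79 bp and 1.48 at 80 bp or more. In located promoters the share of CCGG among covered sites rose over the same classes from 8.76% to 100% (94 sites), so the classes also differ in that respect. The part of CCGG sites in the spacing pattern was not tested.

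Around gene starts the groups came together. Within 500 bp downstream of a located start, at 169297 sites, the level was 15.0% and 15.1% with saline and 14.7% in each 5AZA library, a difference of -0.36 points. Between 4000 and 5000 bp downstream it was 61.8% and 61.7% with saline and 58.6% and 57.9% with 5AZA, a difference of -3.53 points. Upstream, the difference was -0.43 points in the last 500 bp before the start and -2.40 points at 4000 to 5000 bp. At each of the 14 distances the 5AZA libraries were below the saline libraries without overlap. The saline level also changed with distance, so windows were also compared by level. In 1 kb windows of 80% or more in sham, the mean difference was -3.58 points for the 192 windows centred within 1 kb of a located start and -3.80 points for the 35131 windows more than 20 kb away. Windows under 20% in sham differed by 0.0728 points within 1 kb and by -0.14 points beyond 20 kb. Windows of 20 to 80% kept a gap, with -0.52 points for 3888 windows within 1 kb and -4.42 points for 17476 beyond 20 kb, but within this class the saline levels also differed, at 31.7% and 32.3% against 60.3% in each library.

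**Figure D2:**
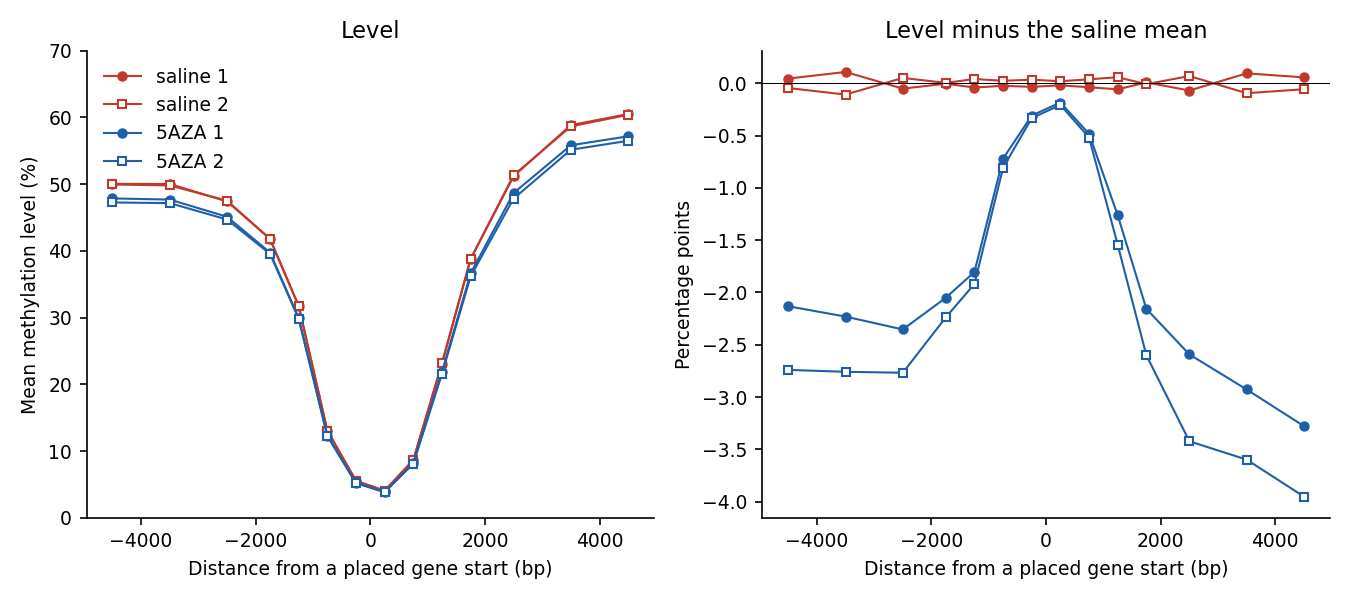
Mean methylation level (%) and level minus the saline mean (percentage points) against distance from located gene starts (bp), for CpG sites other than candidate fragment ends; each line is a library. The 4 libraries nearly coincide at the start, where levels are lowest, and the 5AZA lines run below the saline lines at every distance.

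Single regions were tested as 1 kb windows with at least 3 sites. Of 89813 windows, 1392 (1.55%) fell with 5AZA and 4 (0.00445%) rose (edgeR quasi-likelihood test, p under 0.05 after Benjamini-Hochberg adjustment). In all 1396 called windows the 5AZA and saline libraries did not overlap. Among all windows tested, the 5AZA libraries were lower without overlap in 49.1% and higher without overlap in 5.69%. The falling windows had a median difference of -8.71 points, against -2.70 points in all windows. They averaged 89.8% with saline, 79.9% with 5AZA and 85.3% in sham. The calls themselves rest on high saline or low 5AZA levels, so their place against sham is a description: the 5AZA mean was below both sham libraries in 1225 of them, between the sham libraries in 110 and above both in 57. Windows centred within 1 kb of a located start held 9 calls among 12222 (0.0736%), those at 5 to 20 kb held 274 among 12313 (2.23%). Among windows of 80% or more in sham, the calls were 4 of 192 (2.08%) within 1 kb and 207 of 7039 (2.94%) at 5 to 20 kb. The calls rested on few libraries: leaving out saline 1 or saline 2 gave 0 calls, 5AZA 2 gave 4, sham 1 gave 170 and sham 2 gave 140, and without 5AZA 1 there were 1180. An unadjusted p under 0.05 was reached by 20851 windows with all libraries, by 14112 when saline 1 was left out and by 15550 when saline 2 was. Limma on log2 ratios gave 0 calls (18379 unadjusted), as did edgeR without candidate fragment-end sites (17897 unadjusted); all 1375 called windows that could be tested without these sites kept their direction.

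The 10 largest falls ranged from -30.8 to -25.3 points. Site levels were read in the first 3 of them, and in each the differences of all sites had the same sign. The largest fall, on chromosome 12 at 13191001 to 13192000 (5 sites, 50 to 184 reads per library), went from 87.5% and 82.0% with saline to 51.3% and 56.5% with 5AZA, with 63.4% and 71.1% in sham (edgeR adjusted p = 0.0314; 0.0266 to 0.183 over the alternatives). Its sites differed by -12.0 to -49.1 points. Chromosome 9 at 114625001 to 114626000 (149 to 325 reads per library) held 5 sites, none a candidate fragment end, and had no located start within 2 kb. Its level was 67.5% and 70.5% with saline, 36.8% and 39.8% with 5AZA, and 52.9% and 50.3% in sham (edgeR adjusted p = 0.0204; 0.0133 to 0.138 over the alternatives). The first site differed by -10.02 points and the other 4 by -35.2 to -37.1 points. All 6 libraries were ordered saline, sham, 5AZA in this window, without overlap. Chromosome 4 at 131358001 to 131359000 (4 sites, 44 to 108 reads) showed another order: 89.7% and 88.5% with saline, 69.4% and 52.3% with 5AZA, and 88.9% and 84.1% in sham (edgeR adjusted p = 0.0460; 0.0327 to 0.166 over the alternatives). Its sites differed by -18.5 to -37.9 points. There the 5AZA libraries alone were low, and they differed from each other by more than saline from sham.

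The 4 rising windows were of different kinds. Chromosome 8 at 24319001 to 24320000 went from 15.8% and 24.7% with saline to 35.3% and 37.1% with 5AZA when reads were summed (edgeR adjusted p = 0.0389), a difference of 15.9 points, but the mean of its 9 site levels differed by 1.28 points. Its sites at either end of the range, 1 at 0% and 1 at 96% or more in every library, each had 14 to 321 reads. At a coverage minimum of 20 the summed difference of the window was 2.92 points. The summed level counts sites by their reads, and the part of read numbers in the difference was not tested. Chromosome 4 at 53727001 to 53728000 (35 sites, 1234 to 2935 reads) read 16.3% and 21.6% with saline, 29.8% and 32.9% with 5AZA, and 19.3% and 13.3% in sham (edgeR adjusted p = 0.0389), and the mean of its site levels differed by 11.9 points. Most of its sites were under 5% in saline 1 and between 8.51% and 23.4% in 5AZA 1. At some of them saline 2 read above 5AZA 1 (14.1% against 10.6% at position 53727219, with 27.8% in 5AZA 2). At others saline 2 read below both 5AZA libraries (3.70% against 23.4% and 22.2% at position 53727450). Of the window's 5 sites at 68.2% or more in both saline libraries, 4 differed by -0.80 to 3.32 points and the other by -10.7 points. In the rising windows on chromosome 4 at 133428001 (79.4% and 77.4% to 90.8% and 88.9%) and chromosome 14 at 20597001 (81.8% and 83.9% to 95.02% and 91.2%), the 5AZA libraries stood within 2 points of a sham library.

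Of the 14417 windows centred within 2 kb of a located start, 18 were called, against 1396 of all 89813 windows. The 18 were listed after their values had been seen, and all of them fell. Some were densely methylated in sham, including the windows at Sec1, a fucosyltransferase gene, Itga2b, which encodes the platelet integrin alpha-IIb, and Eef2, which encodes a translation elongation factor. The Sec1 window read 97.0% and 96.9% with saline, 90.8% and 89.0% with 5AZA, and 96.4% and 97.5% in sham (edgeR adjusted p = 0.0247). The Eef2 window, with 2367 to 6728 reads at 4 sites, read 85.7% and 85.8% with saline and 80.1% and 76.5% with 5AZA (edgeR adjusted p = 0.0265). At Sec1 and Eef2 saline and sham were close, with 85.7% and 84.2% in sham at Eef2, and 5AZA lay below. In other densely methylated windows sham lay between the other groups: Itga2b read 94.9% and 94.8% with saline, 87.3% and 87.2% with 5AZA, and 92.1% and 92.5% in sham (edgeR adjusted p = 0.0314). Pofut2, a protein O-fucosyltransferase gene, read 91.2% and 93.4% with saline, 83.4% and 82.4% with 5AZA, and 86.5% and 88.4% in sham (edgeR adjusted p = 0.0340). Others were of intermediate level and had saline above both other groups. They included Numbl, a relative of the Notch inhibitor Numb, with 59.0% and 60.2% with saline, 42.4% and 43.0% with 5AZA, and 46.4% and 38.6% in sham (edgeR adjusted p = 0.0438). Slc19a1, the reduced folate carrier, read 76.4% and 62.9% with saline, 49.8% and 45.3% with 5AZA, and 50.9% and 46.1% in sham (edgeR adjusted p = 0.0476); its difference of -22.1 points was -14.7 points without its 1 candidate fragment-end site. Zfp503, a zinc finger repressor gene, read 34.1% and 32.5% with saline, 23.5% and 25.7% with 5AZA, and 21.5% and 20.5% in sham (edgeR adjusted p = 0.0429). These calls too were lost under at least 1 alternative, with adjusted p-values up to 0.345.

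**Figure D3:**
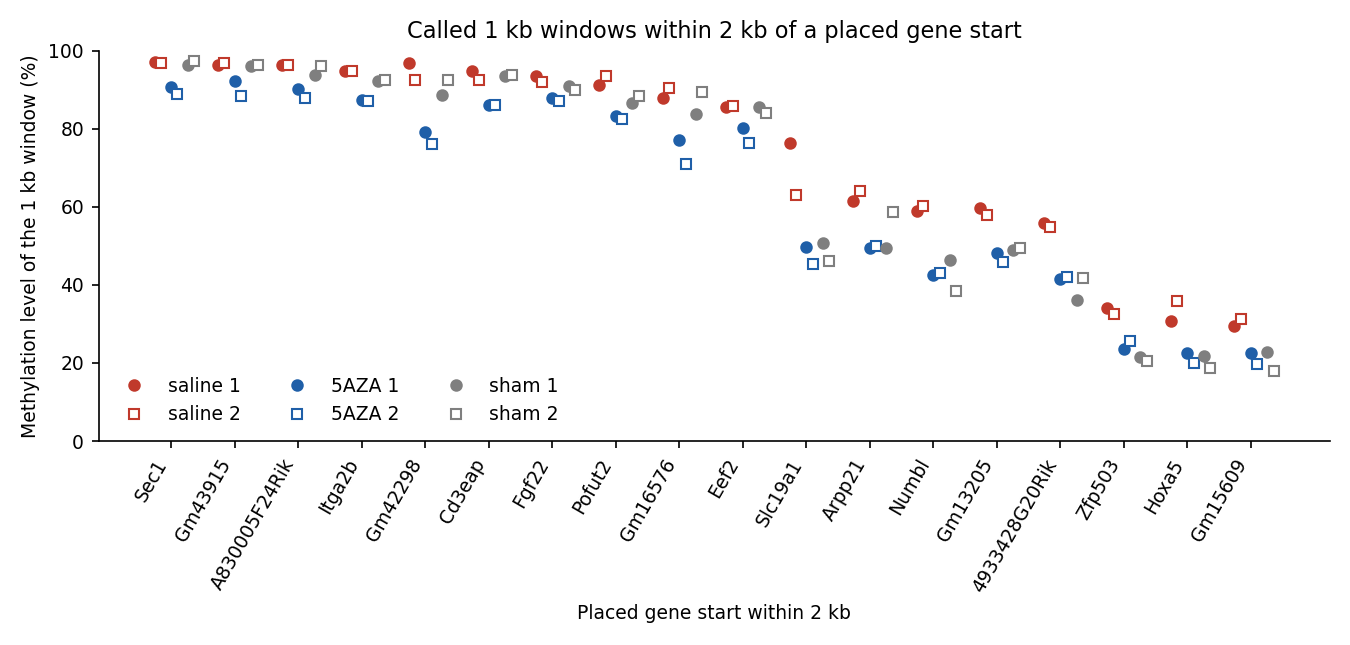
Methylation level (%) of the 18 called 1 kb windows centred within 2 kb of a located gene start, by library (filled circles, replicate 1; open squares, replicate 2), ordered by the saline mean. Saline and sham libraries lie together above 5AZA at Sec1, sham lies between the other groups at Pofut2, and 5AZA and sham lie together below saline at Hoxa5.

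Promoters were tested on counts summed from 250 bases before to 50 bases after each located start. None of the 7952 tested (0%) differed between 5AZA and saline (edgeR, Benjamini-Hochberg), with a smallest adjusted p of 0.460; 300 (3.77%) had an unadjusted p under 0.05, 197 lower and 103 higher with 5AZA. Limma gave 0 calls and 280 at an unadjusted p under 0.05. In 7205 promoters the sites other than CCGG averaged under 5% in sham. Their mean difference at these sites was -0.14 points, and 174 had an unadjusted p under 0.05 in the test with all sites. In the 55 promoters tested whose other sites averaged 80% or more in sham, the mean level of these sites was 90.9% and 90.7% with saline, 86.9% and 86.6% with 5AZA. The 5AZA libraries were lower without overlap in 36 of these 55 and higher without overlap in 1, against 19.2% and 14.5% of all located promoters, and 24 had an unadjusted p under 0.05. The 119 promoters of 20 to 80% differed by -6.07 points on average, with 37 at an unadjusted p under 0.05. The counts of p-values in these classes are from the test with all sites. Tested without CCGG sites, 122 of 7672 promoters had an unadjusted p under 0.05 (edgeR), against 300 of 7952 with them.

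Of the 15 promoters of lowest p on the lower side, all but Gm15609 and Sstr4 were more than 50% methylated with saline. Without CCGG sites, 14 of the 15 had a value, and Creb3l4 (31.1% as the saline mean) and 4932438H23Rik (49.1%) were below 50% too. Gm42298 (4 sites, 80 to 192 reads) read 96.9% and 92.6% with saline, 79.3% and 76.1% with 5AZA, and 88.5% and 92.5% in sham (edgeR adjusted p = 0.460). Yy2, an intronless X-linked relative of the zinc finger gene Yy1, read 94.2% and 96.0% with saline, 87.1% and 89.1% with 5AZA, and 97.6% and 97.3% in sham (edgeR adjusted p = 0.460). Taf1c, which encodes a subunit of the RNA polymerase I initiation factor SL1, read 96.5% and 96.3% with saline, 90.6% and 91.0% with 5AZA, and 95.3% and 95.8% in sham (edgeR adjusted p = 0.460). In the last 2, saline and sham were close and 5AZA was apart. Ckm, the muscle creatine kinase gene, read 77.5% and 76.9% with saline, 68.6% and 65.4% with 5AZA, and 74.7% and 72.6% in sham (edgeR adjusted p = 0.715). Without CCGG sites Gm42298 differed by -16.0 points, Yy2 by -8.05, Taf1c by -8.88 and Ckm by -12.5 points. Their unadjusted p-values were then 0.0133, 0.0447, 0.0161 and 0.264, in the same order (edgeR). All 15 differed by -17.0 to -4.97 points with CCGG sites, and the 14 with a value by -18.0 to -4.92 points without them.

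Hoxa5, the homeobox gene that the series title concerns, and Mcts2, an imprinted gene copied from an mRNA, are shown with their sequence because their covered sites fell into separate sets. The 250 bases before each start are from RefSeq (GRCm38.p6), written 5′ to 3′ along the gene, at chr6:52154587-52154836 (minus strand) for Hoxa5 and chr2:152512634-152512883 (plus strand) for Mcts2, with CCGG in capitals.
Hoxa5: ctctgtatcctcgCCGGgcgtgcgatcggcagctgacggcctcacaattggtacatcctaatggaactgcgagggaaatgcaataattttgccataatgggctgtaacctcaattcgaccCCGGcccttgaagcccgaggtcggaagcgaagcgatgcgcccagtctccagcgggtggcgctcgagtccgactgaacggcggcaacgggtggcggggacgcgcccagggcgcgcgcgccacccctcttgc
Mcts2: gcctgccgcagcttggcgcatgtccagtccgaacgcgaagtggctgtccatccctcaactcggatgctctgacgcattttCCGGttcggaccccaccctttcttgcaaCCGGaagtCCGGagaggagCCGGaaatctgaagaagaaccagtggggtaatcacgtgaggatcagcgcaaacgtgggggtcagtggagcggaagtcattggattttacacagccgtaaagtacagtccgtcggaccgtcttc

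The Hoxa5 promoter had 7 covered sites and read 44.6% and 55.1% with saline, 36.3% and 31.2% with 5AZA, and 32.3% and 26.2% in sham, a difference of -16.1 points that did not pass the test (edgeR adjusted p = 0.715). Its 2 CCGG sites, 128 and 235 bases before the start, differed by 0.27 and 1.84 points, and the 5 sites between them by -18.01 to -32.1 points. Without the CCGG sites it read 31.8% and 42.3% with saline, 16.9% and 9.85% with 5AZA, and 14.1% and 8.46% in sham. The 1 kb window at its start, with 45 sites, fell (30.8% and 35.8% with saline, 22.6% and 20.0% with 5AZA; edgeR adjusted p = 0.0266; 0.0190 to 0.198 over the alternatives).

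The Mcts2 promoter had 13 covered sites (edgeR adjusted p = 0.460). It read 64.0% and 63.5% with saline, 53.7% and 53.5% with 5AZA, and 57.5% and 59.6% in sham. The 4 sites from 217 to 178 bases before the start stood near the intermediate level usual for an imprinted promoter in every library and differed by 0.27 to -3.82 points. The 6 sites from 89 to 7 bases before the start differed by -18.2 to -25.7 points: at 77 bases before the start, saline read 65.4% and 59.1%, 5AZA 37.0% and 36.2%, and sham 56.1% and 51.1%. Nearby CpG sites of a fragment are read together, so these 6 sites are not separate observations.

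**Figure D4:**
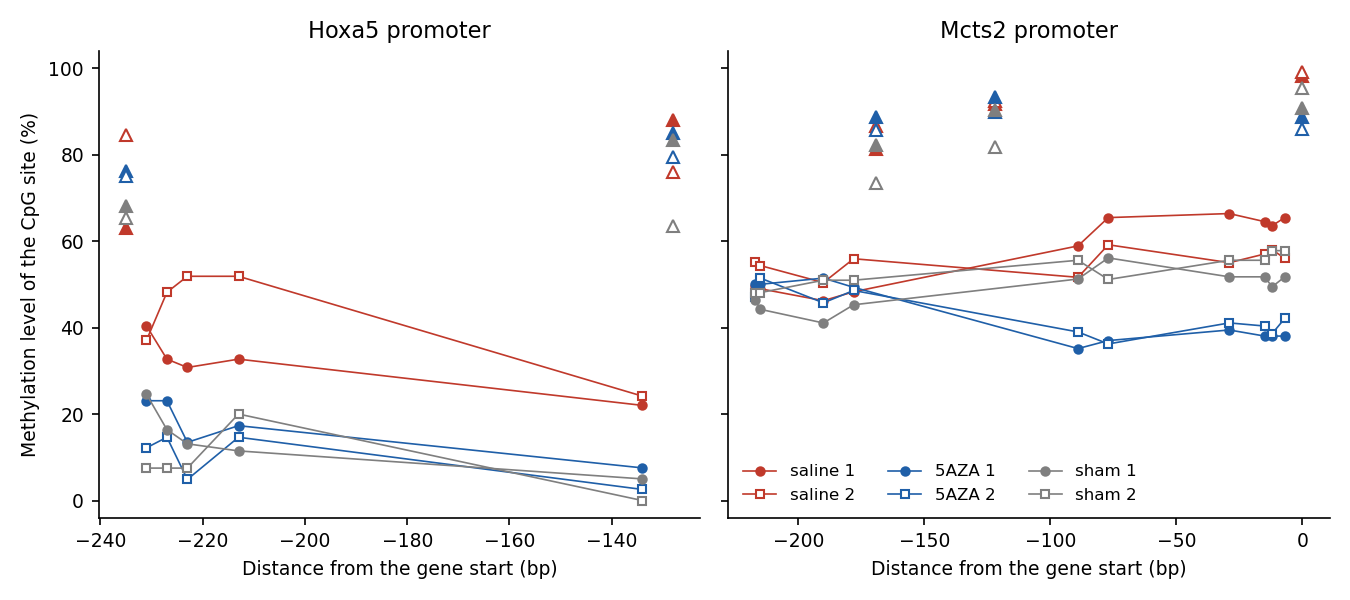
Methylation level (%) of each covered CpG site in the Hoxa5 and Mcts2 promoters against its distance from the gene start (bp); triangles are CCGG sites, other symbols all other sites, filled for replicate 1 and open for replicate 2. At Hoxa5 the saline libraries lie above the 5AZA and sham libraries at sites outside CCGG; at Mcts2 the 5AZA libraries lie below saline and sham in the 89 bases before the start, and not farther upstream.

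Germline genes, which somatic cells keep silent by promoter methylation, were the list with the highest levels. Of 36 listed, 12 could be tested, with medians of 93.8% with saline and 90.9% with 5AZA. None passed the test, and 10 had a lower mean with 5AZA, as did 4143 of 7953 located promoters. In 7 the 5AZA libraries were lower without overlap, against 19.2% of all located promoters. Among the 55 promoters of 80% or more in sham this held for 36. The median difference of the germline genes was -2.82 points, against -0.07 over all located promoters. Without CCGG sites it was -3.63 points over 11 genes, against -0.13 over all and -3.63 over the 55 promoters of 80% or more in sham. The list was chosen with earlier results of these data known. Tex101, a germ cell surface protein gene, read 94.3% and 94.9% with saline, 91.0% and 91.3% with 5AZA, and 94.1% and 96.8% in sham (edgeR adjusted p = 1). Slc25a31, the testis form of the mitochondrial ADP/ATP carrier, read 94.0% and 95.7% with saline and 88.9% and 92.7% with 5AZA. Ddx4, the germ cell RNA helicase Vasa, and Asz1 did not share this direction: Ddx4 read 74.1% and 67.9% with saline and 72.1% and 73.5% with 5AZA, and Asz1 96.2% and 95.2% with saline and 96.5% and 95.8% with 5AZA. Tex101 is shown as a methylated promoter with 8 covered sites outside CCGG before its start, 6 to 28 and 152 to 183 bases from it, at chr7:25457070-25457319 (minus strand), written as above.
Tex101: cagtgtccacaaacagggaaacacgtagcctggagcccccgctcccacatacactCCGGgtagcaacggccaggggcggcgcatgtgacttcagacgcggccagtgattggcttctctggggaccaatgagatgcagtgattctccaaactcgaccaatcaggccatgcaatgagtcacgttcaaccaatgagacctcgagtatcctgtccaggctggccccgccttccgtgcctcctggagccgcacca

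Across its 14 sites the Tex101 difference ranged from -9.91 to 12.95 points, the latter at a site with 11 to 33 reads. Each site still read 78.8% or more in every saline and 5AZA library.

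Imprinted genes were the list with the lowest median difference. Of 33 listed, 10 could be tested, and none passed the test; their median difference was -3.47 points, with medians of 41.8% with saline and 34.4% with 5AZA. In 5 the 5AZA libraries were lower without overlap, and in 1 higher, against 19.2% and 14.5% of all located promoters. Among the 119 promoters of 20 to 80% in sham it was 56 and 6. Besides Mcts2, Igf2r, the receptor that clears the growth factor encoded by Igf2, read 41.9% and 47.2% with saline, 35.1% and 31.9% with 5AZA, and 34.1% and 22.8% in sham (edgeR adjusted p = 1). Zrsr1, also copied from an mRNA, read 63.0% and 60.2% with saline and 57.9% and 57.8% with 5AZA. Plagl1, a zinc finger growth regulator gene, read 41.4% and 46.4% with saline and 42.6% and 47.7% with 5AZA. Without CCGG sites the sign at Plagl1 turned, from 1.27 to -2.98 points, with 34.7% and 38.2% with saline and 30.2% and 36.7% with 5AZA, which overlap. The difference was then -12.8 points at Igf2r and -6.08 points at Zrsr1. All 10 had a lower mean with 5AZA at these sites, by -0.23 points (Grb10) to -12.8 points (Mcts2), against 56.2% of all located promoters with a value. With CCGG sites it was 7 of 10. Other lists shared this without CCGG sites: all 9 Hox genes, 7 of 8 tubule transport genes and 6 of 7 antifibrotic genes were lower. Among cell cycle and immune genes it was 1 of 6 and 1 of 5. The median difference of the imprinted genes without CCGG sites was -4.08 points, and that of the 119 promoters of 20 to 80% in sham was -4.93 points.

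The lists of fibrosis, nephron and signalling genes held mostly unmethylated promoters. Outside CCGG sites their median level with saline was 2.69% for antifibrotic genes, 2.10% for matrix and myofibroblast genes, 2.29% for Notch pathway genes, 3.79% for Hox genes, 1.71% for genes of the methylation machinery, 3.38% for nephron transcription factors, 2.45% for tubule transport genes and 1.82% for cell cycle genes. None of the members tested passed, and their median differences with all sites ran from -1.36 points (Hox genes) to 0.59 points (cell cycle genes). Of the 7 antifibrotic genes tested, Hoxa5 alone had an unadjusted p under 0.05. Socs3, an inhibitor of cytokine signalling, read 13.9% and 13.4% with saline and 11.3% and 10.8% with 5AZA, but 1.68% and 1.21% as group means without CCGG sites. Among 18 Notch genes, Rfng, a fringe glycosyltransferase that modifies Notch receptors, read 14.4% and 14.5% with saline and 17.5% and 17.3% with 5AZA (edgeR adjusted p = 1), and differed by 2.49 points without CCGG sites. Jag1, a Notch ligand gene, read 26.8% and 24.7% with saline and 28.1% and 27.2% with 5AZA at 3 sites (edgeR adjusted p = 1). Fewer than 3 of these lay outside CCGG, so Jag1 had no value without CCGG sites, and its level does not show a methylated promoter. The sign of its difference turned when 1 kb on each side of the start was counted. Dnmt1, whose protein the drug class targets, read 17.7% and 16.7% with saline and 18.4% and 17.97% with 5AZA (edgeR adjusted p = 1), and differed by -0.05 points without CCGG sites. Of the 15 genes of the methylation machinery tested, none had an unadjusted p under 0.05.

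**Figure D5:**
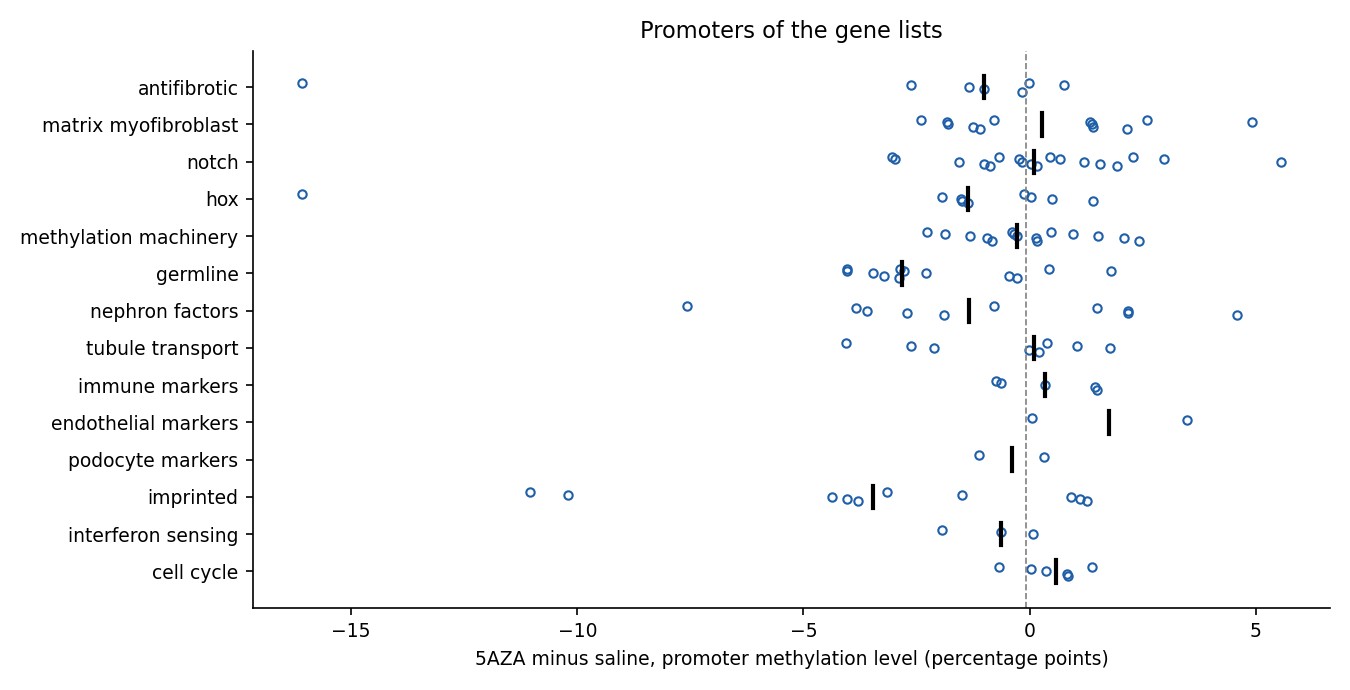
Difference in promoter methylation level between 5AZA and saline (percentage points) for each tested member of 14 gene lists (circles), with the list's median (black bar) and the median of all located promoters (dashed line, -0.07). Germline and imprinted genes have the lowest medians, -2.82 and -3.47 points, and the point at the far left in 2 lists is Hoxa5.

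Marker genes of other cell types were few among the promoters tested. Of 35 immune, 16 endothelial and 10 podocyte genes listed, 5, 2 and 2 could be tested, all without a p under 0.05, and outside CCGG sites their median levels with saline were 2.73%, 1.24% and 1.68%. The tubule list held a methylated promoter besides the unmethylated ones. Ggt1, a brush border enzyme gene of the proximal tubule, read 61.2% and 44.5% with saline, 49.3% and 46.0% with 5AZA, and 33.5% and 37.5% in sham at 3 sites outside CCGG. In the nephron list, Tfap2a, a transcription factor gene, averaged 60.5% with saline, 52.9% with 5AZA and 56.4% in sham with all its sites. Fewer than 3 of these lay outside CCGG, so Tfap2a had no value without CCGG sites, and its level does not show a methylated promoter. Neither passed the test (edgeR adjusted p = 1 with all sites). At Ggt1 saline and 5AZA overlapped and sham was lower than both. Interferon and nucleic acid sensing genes were covered by 3 of 30 promoters, with a median difference of -0.64 points. The share of infiltrating or dividing cells in each library was not analysed here.

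Among the 5 promoters of lowest p on the higher side, none of which passed, the difference shrank when CCGG sites were left out. Aftph, which encodes a protein of vesicle trafficking, had the lowest p: 25.98% and 30.6% with saline, 40.9% and 44.2% with 5AZA, and 41.1% and 36.3% in sham (edgeR adjusted p = 0.570). Of its 5 covered sites, the 3 outside CCGG read 0.604% with saline and 1.01% with 5AZA as group means, and the 2 CCGG sites, 67 and 109 bases before the start, differed by 4.10 and 7.57 points. The summed difference, 14.2 points, was larger than at any of these sites. Summed levels count sites by their reads, and the part of read numbers in it was not tested. The sequence shows both kinds of site at chr11:20641560-20641809 (minus strand), written as above.
Aftph: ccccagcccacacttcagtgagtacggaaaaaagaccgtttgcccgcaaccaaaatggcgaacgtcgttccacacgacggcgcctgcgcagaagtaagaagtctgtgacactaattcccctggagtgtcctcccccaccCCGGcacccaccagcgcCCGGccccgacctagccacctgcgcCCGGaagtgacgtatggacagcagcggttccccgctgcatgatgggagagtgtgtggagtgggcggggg

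Gm35829 differed by 9.42 points with and 1.30 points without CCGG sites, and Tor2a, a torsin ATPase gene, by 10.0 and 1.61 points. Upf2, which encodes a factor of nonsense-mediated mRNA decay, differed by 5.70 points with them and 2.83 points without them, and Cabp1, a calcium-binding protein gene, by 4.02 and 2.66 points. CCGG occurs in 52.8% of all RefSeq promoter sequences and in 98.5% of those of located genes, since the location itself needed covered sites.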

How the data were processed

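RRBS was done by the authors on 6 kidney libraries. Per the labels' protocols, DNA was cut with MspI, end-repaired with methylated dCTP, selected for short inserts, treated with bisulfite and amplified. Per the submitters' processing notes, Bowtie and the build mm9 were used. The methylation caller and any read filters were not given in the sources used here, and the files have no header. Each row holds a CpG site with the authors' deposited counts of covering and methylated reads; the deposited fraction equalled their ratio in all rows. No molecular identifiers are described, so counts are of reads, not molecules.

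Levels are methylated over covering reads at sites with at least 10 reads in all libraries. Each RefSeq promoter (300 bases, GRCm38.p6) was placed on mm9 at the stretch of its chromosome where every covered CpG fell on a CpG of the sequence, with at least 5 matched sites and 3 more than the next best stretch. This placed 10270 of 32851 promoters; 10 disagreed with their neighbours and were left out. A candidate fragment end had coverage within 5% of the summed coverage of its neighbours, or a level of 30% or more where a 1 kb window of 10 or more sites had a median below 5%.

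Counts of methylated and unmethylated reads entered the quasi-likelihood test of edgeR 4.0.16 (R 4.3.3): an intercept per library, a group effect on methylated counts, all 6 libraries, 1 common dispersion, at least 3 sites, Benjamini-Hochberg over all windows or promoters. The test was tested on simulated data. Means over sites were compared by exact permutation over libraries. Named windows were the 10 largest falls and 5 largest rises among calls without overlap, filled up by p; named promoters were 15 and 5 by the same rule, the 3 of smallest p per list, and Hoxa5, Jag1, Kl, Rasal1 and Dnmt1 where measured. Members and lists were chosen with earlier results of these data known. Alternatives were limma 3.58.1, other coverage and site minimums, window and promoter sizes, site sets and library sets; tests without CCGG sites, with a minimum level of 20%, with unweighted window means and with fixed read weights were added after seeing the data. Python 3.11.15, numpy 2.4.6, pandas 2.3.3, scipy 1.17.1, numba 0.67.0 and matplotlib 3.10.9 were used.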

Additional observations from a re-analysis of the deposited data

How the results depend on the processing

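The difference over all sites kept its sign at coverage minimums of 5 and 20, without the most deeply covered sites, without candidate fragment ends and on autosomes. It also did so without each saline or 5AZA library in turn. The 27 differences by class, spacing and distance kept theirs in all 243 of these alternatives. The sham libraries, by which sites were sorted, were not left out here. As methylated reads over all reads the difference over all sites was 0.819 points. Sites of 80% or more in sham took 25.7% and 26.9% of the reads with saline and 27.8% and 29.6% with 5AZA. When each site was weighted by its mean coverage over the libraries the difference was -1.89 points. The count of 1396 windows was 850 at a coverage minimum of 20, 413 in windows of 500 bp, 555 with a minimum difference of 10 points, 173 in the 4 libraries compared, 0 by limma and 0 without candidate fragment-end sites, where the common dispersion was 0.0185 against 0.00632; with windows of at least 20% alone it was 928 without these sites. Without 1 library it ranged from 0 to 1180. Among called windows, 876 held no candidate fragment end, though these can still hold CCGG sites. All called windows that could be tested kept their direction in each alternative. With the replicate number as a block, 2321 windows and 2 promoters (Gm42298 and Gm35510, named after seeing their values) were called. The libraries share only a number: over windows, the difference between the saline libraries correlated at r = 0.0762 with that between the 5AZA libraries. Promoter calls ranged from 0 to 1 without 1 library (Gm24463 without saline 1) and were 0 in the other alternatives. Of 59 named promoters, 16 changed sign in at least 1 alternative, none of them with an unadjusted p under 0.05, and no named window did. Median coverages were 33 to 48 reads, and single sites were not tested.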

Other observations

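The X chromosome, of which male mice carry a single copy, followed the autosomes. At its 5130 sites of 80% or more in sham, the level was 93.4% in each saline library and 90.4% and 89.6% with 5AZA, a difference of -3.46 points. The unmethylated share was 1.53 times that with saline.

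Windows that were low in 1 pair of libraries were lower than average in the other. The 899 windows (1%) with the most negative difference of 5AZA 1 minus saline 1 differed by -8.24 points on average in 5AZA 2 minus saline 2, where all 89813 windows averaged -3.47 points, and 87.3% of them were negative there, against 75.4% of all. Chosen in the second pair and read in the first, the means were -6.88 and -2.83 points. Among windows of 80% or more in sham the means were -6.76 against -4.42 points, and -4.78 against -3.18 points the other way round, and the negative shares were nearly equal, at 87.6% against 86.7% and 81.0% against 80.6%. Over all windows the differences of both pairs, which share no library, correlated at r = 0.28, and at r = 0.12 over the 45885 windows of 80% or more in sham. With the numbers crossed (5AZA 1 minus saline 2 and 5AZA 2 minus saline 1), r was 0.21 and 0.11. Among windows of 80% or more chosen in 5AZA 2 minus saline 1, 81.7% were then negative in 5AZA 1 minus saline 2, against 82.0% of all. Their mean there was -5.03 points, against -3.34 points. Windows share libraries and level, so these values are a description. The most deeply covered window, on chromosome 17 at 39982001 to 39983000 (100 sites, 317838 to 633709 reads), read 27.5% and 28.0% with saline, 26.04% and 25.2% with 5AZA, and 30.8% and 26.3% in sham, and was not called (edgeR adjusted p = 0.191).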
